A study of Mus musculus with 27 samples.

Results

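Small nucleolar RNAs (snoRNAs) and small Cajal body RNAs (scaRNAs) were examined in RAW264.7 cells, a mouse macrophage line, across total RNA, anti-HuR immunoprecipitates and control IgG immunoprecipitates. The members are the genes of the deposited count table whose transcript biotype is exactly snoRNA or scaRNA and whose raw counts, summed over the 27 libraries, reached 50. That rule gave 154 of 1558 snoRNA and scaRNA genes, out of 55483 genes in the table. The members comprise 137 snoRNAs and 17 scaRNAs by biotype and hold 98.43% of all counts in these biotypes, whereas 1008 of the 1558 genes had 0 counts. The members were chosen by their summed raw counts over all libraries, so their detection is not a result. The members nearest the limit were Gm23482 with 52 summed counts, Gm27653 with 51 and Gm25604 with 50. The genes just outside it were Gm22516 and Gm23582 with 49 each, and Snora5c with 47.

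Cells received DMSO, LPS (lipopolysaccharide, a bacterial activator of macrophages) at 1 µg/ml with DMSO, or the same LPS with TM7nox, a tanshinone mimic directed against the RNA-binding protein HuR, at 10 µM. All were harvested after 6 h. Total RNA and anti-HuR RIP (RNA immunoprecipitation) libraries were made for replicates 1 to 4 of each treatment, and control IgG libraries for replicate 3 alone, 1 per treatment. There was no group with TM7nox and no LPS, so an effect of TM7nox is seen here only on top of LPS. Total RNA came from cell pellets, while the beads were given a detergent (NP-40) lysate cleared by centrifugation. In a comparison of RIP with total RNA taken alone, the antibody and the fraction of the cell it was offered therefore cannot be told apart, and IgG values are given beside it for the members it turns on. The labels do not say whether the replicate numbers are separate cultures, and p-values then measure only the spread between these libraries, which may be technical. In total RNA the macrophage markers Adgre1, Csf1r and Cd68 were at 26.4 to 68.1, 167 to 805 and 307 to 593 CPM (counts scaled to a common library size, after TMM adjustment), and Mertk, which is not in every macrophage, at 0 to 1.12. The T-cell marker Cd3e did not exceed 0.0949 CPM, and the epithelial marker Epcam was at 0 in all 12 libraries. In bulk libraries fewer cells and less RNA per cell cannot be told apart.

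snoRNAs act in the nucleolus as guides bound to a small set of core proteins. C/D box members carry C and D boxes and direct ribose methylation, mostly of ribosomal RNA, while H/ACA members carry an ACA trinucleotide close to the 3′ end and direct pseudouridylation. scaRNAs perform the same chemistry on spliceosomal small nuclear RNAs in Cajal bodies. In mammals most are not transcribed on their own but are released by trimming from introns of host genes, many of which encode ribosomal or other translation proteins or are long noncoding RNAs. HuR binds U-rich and AU-rich stretches, chiefly in introns and in the 3′ ends of messenger RNAs.

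The sequences of 9 members are shown because the results below turn on them. All are from the GRCm39 genome, at the position the GENCODE M39 annotation gives, and read 5′ to 3′. Capitals mark TGATGA (the C box motif) lying within the first 20 bases together with CTGA (the D box motif) within the last 20, or, where that pair is missing, an ACA that begins 5 to 8 bases from the 3′ end. Only the annotated strand was searched, and the 2 windows for the C and D box motifs do not overlap. Among the 143 members that could be located, 31 (21.7%) held the C and D pair and 80 (55.9%) the ACA, with 2 holding both. In windows of the same length directly on the 5′ side of each member, 0 of 143 (0%) held the pair and 10 (6.99%) the ACA. A match describes letters only.

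The first 3 are C/D members that were far more abundant in anti-HuR than in IgG libraries. Gm25970 lies at chr12:65103347-65103432 (plus strand) within Prpf39, Snord7 at chr11:83185130-83185226 (plus strand) in an intron of the long noncoding RNA AA465934, and Snord92 at chr17:71938276-71938360 (plus strand) in an intron of Wdr43.
Gm25970: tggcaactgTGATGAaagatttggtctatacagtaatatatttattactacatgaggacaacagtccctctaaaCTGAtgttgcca
Snord7: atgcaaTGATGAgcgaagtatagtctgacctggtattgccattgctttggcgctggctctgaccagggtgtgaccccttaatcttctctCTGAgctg
Snord92: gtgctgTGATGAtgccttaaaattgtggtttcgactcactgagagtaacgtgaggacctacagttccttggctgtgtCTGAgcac

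The next 3 carry the ACA. Gm22027 lies at chr3:96083677-96083803 (plus strand) in an intron of Sf3b4, Gm24644 (biotype scaRNA) at chr2:103871014-103871152 (plus strand) in an intron of Fbxo3, and Gm22748 at chr12:17596147-17596282 (plus strand), where all of its 136 bases fall in an annotated exon of Odc1.
Gm22027: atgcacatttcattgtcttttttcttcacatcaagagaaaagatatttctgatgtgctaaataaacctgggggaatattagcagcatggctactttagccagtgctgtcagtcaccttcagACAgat
Gm24644: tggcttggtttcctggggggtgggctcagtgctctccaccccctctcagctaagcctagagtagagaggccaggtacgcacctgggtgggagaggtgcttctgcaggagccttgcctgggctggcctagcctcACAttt
Gm22748: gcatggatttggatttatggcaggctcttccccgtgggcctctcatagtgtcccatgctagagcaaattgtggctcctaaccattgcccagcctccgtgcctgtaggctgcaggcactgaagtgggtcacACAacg

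The last 3 were lower in anti-HuR than in IgG libraries. Snord104 lies at chr11:106391819-106391888 (plus strand) in an exon of the long noncoding gene Gm36220, Snord15a at chr7:99131992-99132139 (minus strand) in an intron of Rps3, and Snord118 at chr11:68964253-68964387 (plus strand) within Tmem107. Snord118, the RNA known as U8, holds neither motif arrangement in these windows and is printed without capitals.
Snord104: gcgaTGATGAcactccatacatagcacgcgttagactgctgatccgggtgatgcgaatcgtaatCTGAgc
Snord15a: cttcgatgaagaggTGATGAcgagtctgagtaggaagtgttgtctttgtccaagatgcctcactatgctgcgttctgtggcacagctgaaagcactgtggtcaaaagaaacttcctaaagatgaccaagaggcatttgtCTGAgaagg
Snord118: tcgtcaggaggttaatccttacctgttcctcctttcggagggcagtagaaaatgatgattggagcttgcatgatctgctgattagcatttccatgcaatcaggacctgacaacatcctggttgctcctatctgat

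Libraries held 2728534 to 28285856 counts in total RNA, 19816312 to 41449233 in anti-HuR RIP and 8873091 to 24513902 in IgG. The shallowest, RNA DMSO replicate 1, had only 359 counts in the members, and 36 of the 154 had a count in it. Elsewhere at least 78 members had a count, and 131 to 153 did in the RIP libraries. Intervals and floors given here cover counting error only.

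The members made up a very small share of every library. In total RNA they held 0.0286% ± 0.0167 of counts with DMSO, 0.0323% ± 0.0101 with LPS and 0.0472% ± 0.0182 with LPS and TM7nox (SD, n = 4 each). The corresponding RIP shares were 0.0275% ± 0.00639, 0.0183% ± 0.00424 and 0.0238% ± 0.00619 (SD, n = 4 each). By replicate number, RNA shares rose on adding TM7nox to LPS (0.0181 to 0.0284, 0.0375 to 0.0473, 0.0326 to 0.0415, 0.0410 to 0.0717%). RIP shares fell with LPS against DMSO (0.0203 to 0.0194, 0.0332 to 0.0139, 0.0239 to 0.0161, 0.0325 to 0.0236%) and rose in each pair on adding TM7nox. RNA shares against DMSO went both ways, and the pairs were not tested. The single IgG libraries held 0.0988% with DMSO (95% Clopper-Pearson interval 0.0975 to 0.1001), 0.0378% with LPS (0.0370 to 0.0386) and 0.0780% with LPS and TM7nox (0.0762 to 0.0799). Each IgG value lay above the highest RIP library of any treatment, 0.0332%, while the RNA libraries spanned 0.0132% to 0.0717% and overlapped both. The share depends on how the rest of each library is composed, and it is the members taken one at a time that show which RNAs differ between the assays.

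**Figure D1:**
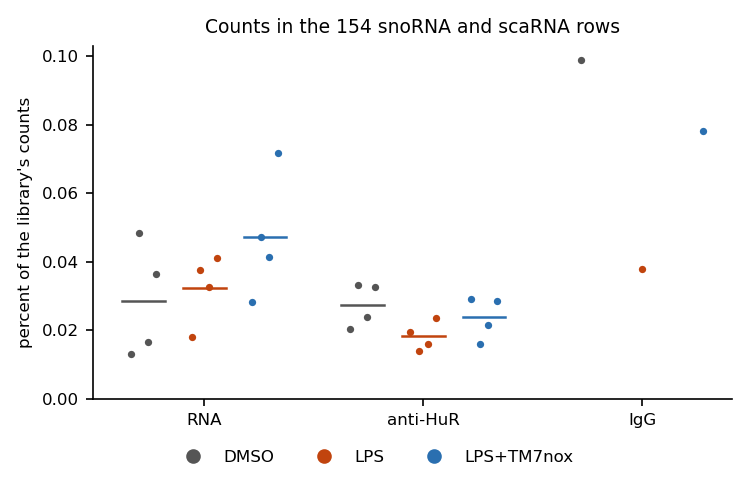
Share of each library's counts that fell in the 154 snoRNA and scaRNA members (vertical axis, percent) by assay, 1 point per library coloured by treatment, with short lines at group means. The 3 IgG points (0.0378 to 0.0988%) lie above all RIP points, whose highest is 0.0332%, and the RNA points spread from 0.0132 to 0.0717%.

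The 10 members with the largest median CPM in total RNA included guides for ribosomal RNA, scaRNAs and predicted members without a family name. Counts are not divided by length, so these values order reads and not molecules. Gm25835, inside Eif4a1, had a median of 30.2 CPM over the 12 RNA libraries (1.91 to 91.7). Snora21, an H/ACA guide inside Rpl23, had 25.6 CPM (0.424 to 72.2), and Snord15a, a C/D guide for the large ribosomal RNA, had 21.8 CPM (4.21 to 60.4). Snord118, which is required for maturation of the large-subunit ribosomal RNAs, stood at 20.8 CPM (11.1 to 56.5). The others were Snora23 (20.4 CPM), Scarna13 (20.1), Gm22009 (13.8), Gm24119 (13.0), Snord17 (9.50) and Scarna2 (8.51), the last a guide for U2 small nuclear RNA. For each of the 10 the highest RNA library exceeded the lowest by several fold, so neighbours in this order were not separated beyond the spread between libraries.

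Several abundant nucleolar RNAs gave no counts. Snord14a, Snord14c, Snord14d, Snord14e, Snord22, Snora73a, Snora73b and Snora74a had 0 counts in all 27 libraries, and no gene had the symbol Snord3a. U3, which acts in early cleavage of the ribosomal precursor, is listed under its mouse names, and its copies Rnu3b2 and Rnu3b3 are members with 118 and 64 summed counts. Rnu3b2 had 0.151 to 0.879 CPM in RIP, at most 0.0972 in total RNA and 0 in the 3 IgG libraries. Snord13, which directs acetylation of the small ribosomal RNA, was counted at 0.579 to 5.09 CPM in total RNA. Scarna6 was at 1.48 to 10.4 CPM and Scarna9 at 0 to 0.729 CPM there. A count of 0 allows up to 3 counts per library, and near-identical copies of a snoRNA share reads that the counting may have discarded or split, so the zeros do not show that these RNAs were missing from the cells.

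Anti-HuR libraries were compared with IgG libraries for each member. Of 154, 147 were tested, 55 were higher in anti-HuR and 33 lower (edgeR quasi-likelihood test with treatment as covariate, Benjamini-Hochberg adjusted over all genes). Across all 18282 genes tested, 57.9% were called, so the count of members called is near the background. The median log2 fold change was 0.39 for the tested members and -0.05 for all genes. Under scaling by total counts alone the median of all genes moved to -1.14 and that of the members to -0.71, with 25 members higher and 63 lower. Both medians moved down together, so the members stayed above all genes while the split of calls changed. IgG was made from replicate 3 only, and antibody and replicate number cannot be told apart beyond the same-numbered RIP libraries. Within replicate 3, 53 members were above IgG in all 3 treatments and 47 below, including 44 of the 55 called higher and 32 of the 33 called lower. A member that is near 0 in IgG could pass the count filter only through the RIP libraries: 19 of the 55 had at most 3 counts in IgG.

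Gm25970, a C/D member, had few counts outside the anti-HuR libraries. Its anti-HuR values were 2.88, 2.84, 2.82 and 1.10 CPM with DMSO, 2.41, 4.10, 3.57 and 0.811 with LPS, and 3.23, 3.73, 2.84 and 1.80 with LPS and TM7nox (replicates 1 to 4). The IgG libraries gave 0 CPM with DMSO, 0.0320 with LPS and 0 with LPS and TM7nox, a single count in all. Every RIP library was above every IgG library. The ratio of depth-scaled summed counts, 721 in RIP against 1 in IgG, was 222 with a 95% counting interval of 39.8 to 8788. Gm25970 entered the test only through the RIP libraries, where it is high, so its difference is described and its p-value is not given. Total RNA held at most 0.289 CPM.

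Snord7, a guide for methylation of U6 small nuclear RNA, showed the same arrangement. Anti-HuR libraries gave 4.87, 6.28, 3.88 and 3.06 CPM with DMSO, 3.98, 3.73, 1.76 and 1.33 with LPS, and 6.88, 2.71, 2.56 and 1.98 with LPS and TM7nox. IgG gave 0.0519, 0.0639 and 0 CPM in the same treatment order, and no RIP library overlapped them. It too entered the test only through RIP, and the ratio of its 1025 RIP counts to 4 IgG counts was 79.0, with a counting interval of 30.7 to 290. Its host AA465934 was also higher in anti-HuR, by 5.15 ± 0.34, and Prpf39, the splicing factor gene that holds Gm25970, by 3.40 ± 0.26.

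Gm22027, an ACA member, had 3.55, 5.55, 3.70 and 3.77 CPM in RIP with DMSO, 5.13, 5.10, 3.47 and 2.20 with LPS, and 6.03, 4.20, 4.63 and 5.22 with LPS and TM7nox. Its IgG values were 0.337, 0.320 and 0.516 CPM, below all 12. The log2 fold change was 3.58 ± 0.34 (edgeR adjusted p = 5.17e-09), while the host Sf3b4, a U2 snRNP splicing factor, differed by -0.29 ± 0.18 (adjusted p = 0.174).

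Gm24644, of scaRNA biotype, was at 3.86, 4.00, 4.34 and 3.47 CPM in RIP with DMSO, at 1.62, 3.26, 1.55 and 1.33 with LPS and at 1.66, 2.30, 1.80 and 0.900 with LPS and TM7nox. IgG gave 0.441, 0 and 0.0859 CPM. All RIP libraries were higher. Its IgG counts were few, 18 in all, and the count ratio was 12.4 (7.80 to 21.1). Fbxo3, its host and a ubiquitin ligase subunit, differed by 1.75 ± 0.20. Gm27326, which was not located in the annotation used, was at 3.21 to 12.1 CPM in RIP against 0.344 to 0.960 in IgG, with a log2 fold change of 3.88 ± 0.36 (adjusted p = 3.82e-09).

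Several members with more counts in total RNA were lower in anti-HuR than in IgG, though not every abundant one. Snora21 differed by 0.32 ± 0.37 (edgeR adjusted p = 0.483). Snord104, a C/D guide for large-subunit ribosomal RNA, had 0.339, 0.430, 0.395 and 0.904 CPM in RIP with DMSO, 0.463, 0.368, 0.932 and 2.09 with LPS, and 0.764, 0.610, 0.879 and 0.810 with LPS and TM7nox. IgG held 4.07, 4.06 and 5.84 CPM, more than any RIP library. The log2 fold change was -2.63 ± 0.34 (edgeR adjusted p = 6.53e-07).

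Scarna2 had RIP values of 2.13, 4.50, 3.70 and 6.23 CPM with DMSO, 3.98, 1.94, 4.40 and 8.63 with LPS, and 4.54, 2.37, 6.35 and 10.98 with LPS and TM7nox. IgG gave 21.5, 14.0 and 21.9 CPM, again above all 12, with a log2 fold change of -1.90 ± 0.32 (edgeR adjusted p = 1.77e-05). Snora78, an H/ACA member in an exon of Snhg9, was lower by -2.20 ± 0.43 (adjusted p = 0.000126), and the scaRNA Gm24289 by -2.12 ± 0.34 (1.2e-05). Gm23639, inside Epb41l4aos, was lower by -2.14 ± 0.48 (0.000567). For these 3 members no RIP library reached the lowest IgG library.

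Snord118 was at 2.98, 6.68, 3.06 and 3.26 CPM in RIP with DMSO, 5.60, 4.68, 6.52 and 11.1 with LPS, and 10.3, 5.89, 7.43 and 7.38 with LPS and TM7nox, against 12.8, 12.2 and 14.9 CPM in IgG. Its log2 fold change was -1.11 ± 0.24 (edgeR adjusted p = 0.000425), with no overlap. Snord15a differed by -1.69 ± 0.42 (adjusted p = 0.0014), but its RIP libraries, from 2.68 to 38.5 CPM, overlapped the IgG values of 70.1, 25.5 and 90.4. Its host, the ribosomal protein gene Rps3, was lower by -1.87 ± 0.22.

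**Figure D2:**
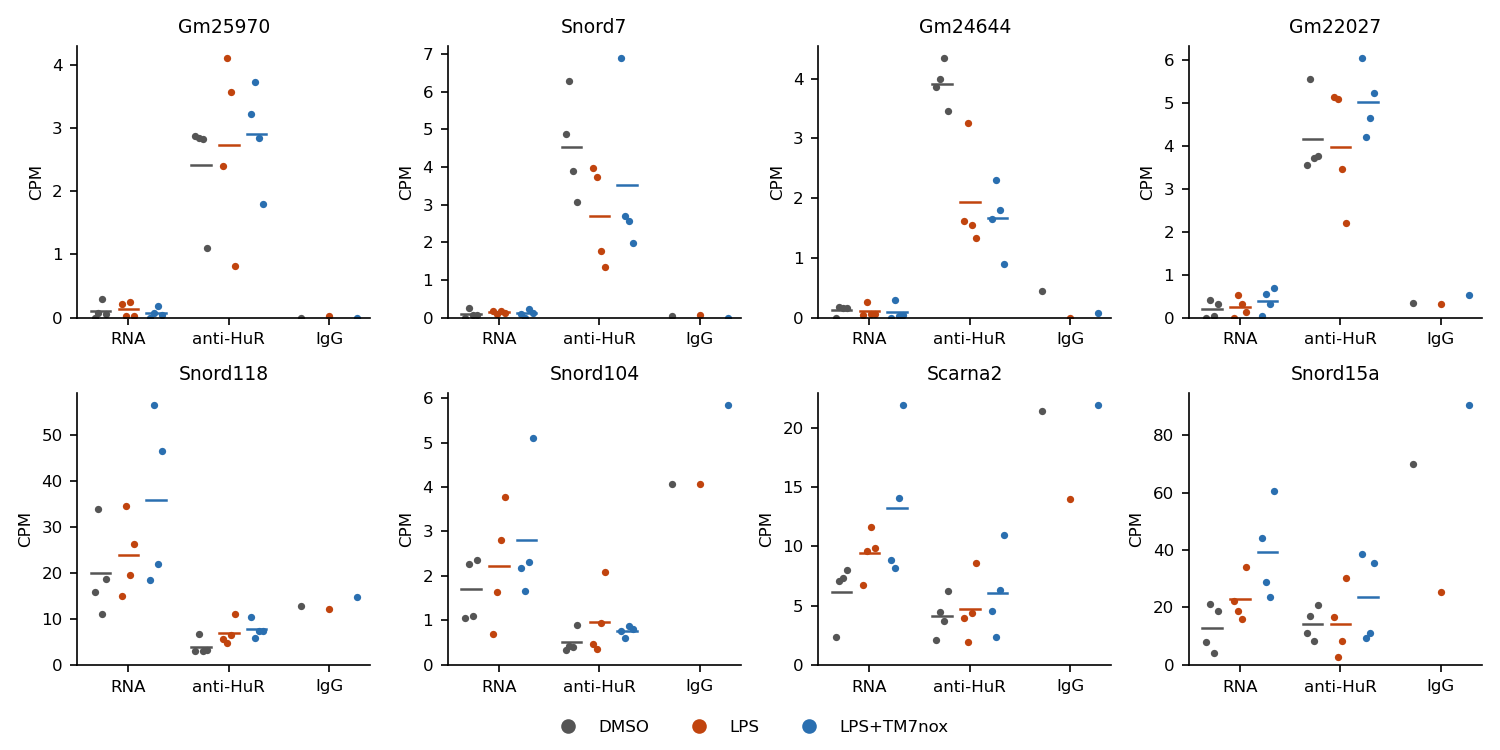
CPM of 8 members (vertical axes, linear from 0) in total RNA, anti-HuR and IgG libraries, 1 point per library coloured by treatment, with short lines at group means. In the upper panels (Gm25970, Snord7, Gm24644, Gm22027) anti-HuR points stand above both other assays, and in the lower panels for Snord118, Snord104 and Scarna2 every IgG point stands above every anti-HuR point.

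The 55 members called higher and the 33 called lower differed in their typical level in total RNA, with overlap. The median of the median RNA level was 0.0156 CPM (0 to 3.44) for those called higher and 2.10 CPM (0 to 30.2) for those called lower. The same medians in IgG were 0.0260 and 5.24 CPM. A member that is rare in IgG can only be tested if it is present in RIP, so this contrast describes the groups and has no test.

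**Figure D3:**
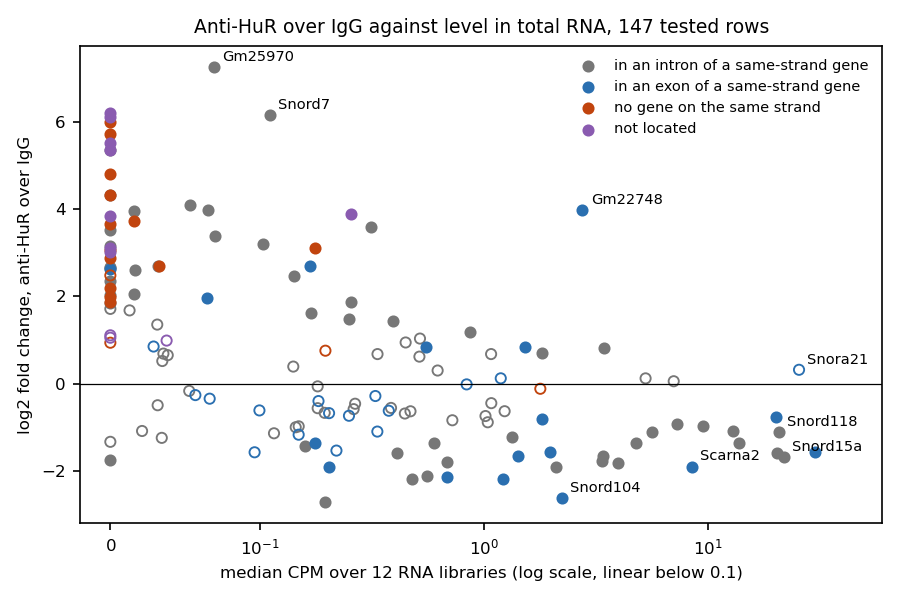
Log2 fold change of anti-HuR over IgG (vertical axis) against the median CPM over the 12 total RNA libraries (horizontal axis, log scale, linear below 0.1) for the 147 tested members, coloured by place in the annotation, filled where called. Gm25970 (7.25) and Snord7 (6.15) sit at the upper left and abundant members such as Snord15a (-1.69) and Scarna2 (-1.90) at the lower right, while Gm22748 (3.98) is high at an intermediate RNA level.

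Place in the annotation was described for the members. Of the 143 located, 125 lay inside a gene on the same strand, 17 only inside a gene on the other strand and 1 in no gene. Same-strand hosts included ribosomal protein genes for 17 members and long noncoding RNA genes for 16. Of the 17 with a gene on the other strand only, 12 were higher in anti-HuR than in IgG and 0 lower, with 16 tested. The 17 had a median RNA level of 0 CPM, as had the 11 that could not be located, so they could be tested only where RIP held counts. Nothing is read from their one-sided split, and the background over all genes is the 57.9% given above. The 92 that lay in introns of same-strand genes were split, 28 higher and 22 lower, and of the 33 overlapping a same-strand exon 6 were higher and 11 lower. Of the 11 that could not be located, 8 were higher and 0 lower. By name, 8 of 27 C/D members were higher and 7 lower, 1 of 12 H/ACA members was higher and 5 lower, and 3 of 18 scaRNAs were higher and 9 lower, whereas 43 of 97 predicted members without a family name were higher and 12 lower. Reads from a host intron or from a gene on the opposite strand cannot be told from the member's own RNA if strand was not used in counting, and the strand setting is not given in the sources used here.

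T content near the members was close in both groups. In the 200 bases on each side, the median T content was 29.25% for the located members called higher, 29.0% for those called lower and 29.0% for all located members. A run of TTTTT was present in the flanks of 29 of 47 located members called higher, 16 of 33 called lower and 78 of all 143. Flanks were read on the member's own strand.

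Anti-HuR against total RNA gave a similar picture in each treatment, with 99 of the 154 members tested. With DMSO 38 were higher in RIP and 5 lower, against 70.4% of all genes called, and the median log2 fold change was 0.91 for members and 0.04 for all genes. With LPS 31 were higher and 7 lower (63.7% of all genes called; medians 0.39 and -0.06). With LPS and TM7nox 31 were higher and 10 lower (69.9% of all genes called; medians 0.50 and -0.09). The shares of members called lay below those backgrounds. Scaling by total counts moved the median of all genes to -0.72, -1.06 and -1.07, and the splits to 29 higher and 13 lower, 24 and 28, and 25 and 24. The medians of the members moved with them, to 0.24, -0.54 and -0.41, and stayed above those of all genes. Within total RNA alone 65 members passed the count filter, against 99 here. Members rare in total RNA could enter only through the RIP libraries where they are high. The members' medians and splits are therefore a description. The counts called come from an edgeR quasi-likelihood test of the 24 RNA and RIP libraries, with the replicate number left out of the model. With the number added as a block, further members passed with LPS and TM7nox. Among them were Gm24727 (1.31, edgeR adjusted p = 0.0197) and Snora62 (1.17, 0.0464).

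Several named members were higher in RIP in all 3 treatments without overlap of libraries: Snord7, Gm25970, Gm24644, Gm27326, Snora30, Snord92, Gm22027, Gm22748, Gm24233 and Gm22358. Of those given here, Snord7, Gm25970, Gm24644, Snora30, Snord92 and Gm22358 had too few counts to be tested within total RNA. They entered this fit through the RIP libraries where they are high, and their values are a description. Total RNA for Snord7 held 0, 0.257, 0.0643 and 0.0657 CPM with DMSO, 0.171, 0.0967, 0.172 and 0.125 with LPS, and 0.0972, 0, 0.221 and 0.127 with LPS and TM7nox, all below its lowest RIP library. Its log2 fold change over RNA was 5.20 ± 0.62 with DMSO, 4.25 ± 0.59 with LPS and 4.86 ± 0.61 with LPS and TM7nox, from 14, 16 and 12 RNA counts. For Gm25970 it was 4.23 ± 0.66, 4.41 ± 0.65 and 4.98 ± 0.68 in the same order. Gm24644 gave 4.68 ± 0.58, 4.07 ± 0.58 and 4.02 ± 0.60, and Snord92 gave 5.13 ± 0.56, 3.54 ± 0.59 and 4.26 ± 0.58. Gm27326, which was tested in total RNA too, gave 4.82 ± 0.54, 4.15 ± 0.52 and 4.84 ± 0.55 (edgeR adjusted p = 1.86e-08, 1.75e-07 and 2.92e-08). Gm22748, also tested there, gave 3.23 ± 0.51, 3.61 ± 0.44 and 3.64 ± 0.45 (4.08e-06, 1.31e-07 and 9.02e-08). In the 3 IgG libraries the ratio of mean CPM over total RNA was 0.102 for Gm25970, 0.331 for Snord7, 0.808 for Gm22748, 1.62 for Gm24644, 1.80 for Gm27326 and 1.98 for Snord92. The RIP libraries gave 25.6, 30.8, 12.1, 23.1, 25.8 and 27.5 in the same order. For Gm22027, Gm24233, Gm22358 and Snora30 the IgG ratio was 1.41, 2.14, 2.23 and 4.26. The RIP ratio was 15.8, 4.70, 15.7 and 11.2 in the same order. The RIP mean of Snora30 was only 2.64 times its IgG mean, and that of Gm24233 2.20 times. Snora30, an H/ACA guide inside Srcap, had log2 fold changes over RNA of 4.51 ± 0.71 with DMSO, 3.34 ± 0.66 with LPS and 2.49 ± 0.62 with LPS and TM7nox. With DMSO its RIP libraries were at 2.40 to 2.91 CPM and its RNA libraries at 0 to 0.206. Its host, the chromatin remodeller gene Srcap, was itself higher in RIP by 3.73 ± 0.23, 2.80 ± 0.22 and 3.08 ± 0.22 in the same order.

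Snord118 was lower in RIP than in total RNA in every treatment. Its RNA values were 15.9, 33.8, 11.1 and 18.8 CPM with DMSO, 15.1, 34.5, 19.6 and 26.3 with LPS, and 18.5, 56.5, 21.9 and 46.6 with LPS and TM7nox. The RIP values given above were lower throughout. The log2 fold change was -2.21 ± 0.40 with DMSO, -1.78 ± 0.40 with LPS and -2.24 ± 0.40 with LPS and TM7nox (edgeR adjusted p = 3.09e-05, 0.000354 and 2.28e-05). Snora23, inside Ipo7, was lower by -1.69 ± 0.53 with DMSO (adjusted p = 0.00625; with replicates 3 and 4 alone -1.45, adjusted p = 0.0663) and by -2.23 ± 0.54 with LPS and TM7nox (0.000666). Snord104 was lower by -1.71 ± 0.55 with DMSO (0.00761) and -1.90 ± 0.54 with LPS and TM7nox (0.0031), and Gm24119, inside Slc25a3, by -1.95 ± 0.64 with LPS and TM7nox (0.00906). With replicates 1 and 2 alone the last 2 values were -1.45 (0.0966) and -1.61 (0.227).

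IgG was also set against total RNA, in a comparison that shares the IgG libraries with that of anti-HuR and IgG. Of 101 members tested, 18 were higher in IgG and 0 lower, against 12.4% of all genes called (edgeR quasi-likelihood test with treatment as covariate). The median log2 fold change was 0.75 for members and 0.04 for all genes. Without IgG DMSO replicate 3, or without IgG LPS+TM7nox replicate 3, 5 members were called. Gm22362, inside Ybx3, led with IgG values of 10.3, 3.23 and 14.3 CPM against RNA values of 0, 0.541, 0.225 and 0.296 with DMSO, 0, 0.516, 0.515 and 0.811 with LPS and 0.292, 0.440, 0.728 and 2.29 with LPS and TM7nox. No library overlapped, and the log2 fold change was 3.98 ± 0.51 (adjusted p = 7.04e-05). In RIP the same member was at 0.525 to 3.51 CPM, which overlapped both other assays. Its mean of 1.78 CPM lay between those of RNA (0.555) and IgG (9.26). Its difference from RNA was 2.42 ± 0.68 with DMSO (adjusted p = 0.00288), 1.39 ± 0.65 with LPS (0.0646) and 1.31 ± 0.62 with LPS and TM7nox (0.0623). With the replicate block the last 2 passed, at 1.51 (0.0204) and 1.503 (0.0117). It was lower than IgG by -2.19 ± 0.27 (2.36e-07). Recovery above total RNA was therefore also seen on beads without the HuR antibody.

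Snora62, an H/ACA member inside the ribosomal protein gene Rpsa, was higher in IgG than in RNA by 2.86 ± 0.45 (edgeR adjusted p = 0.000511), with IgG at 8.72 to 25.6 CPM and RNA at 0 to 3.61. Gm24289 was higher by 2.58 ± 0.56 (0.00541) and Snora78 by 2.22 ± 0.48 (0.00521). Both calls rested on single IgG libraries: without the LPS+TM7nox one they were 2.40 (0.078) and 2.07 (0.0786), and without the DMSO one Snora78 was 2.01 (0.059). Gm23639 was higher by 2.17 ± 0.68 (0.0446), and it missed the threshold in 9 of the alternatives tried, the largest adjusted p being 0.229.

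In total RNA, LPS changed 1 of 65 members tested, against 42% of all 12369 genes called (edgeR quasi-likelihood test). The median log2 fold change was 0.22 for members and -0.04 for all genes. Under scaling by total counts those medians were -0.06 and -0.32, a shift common to both. The member was Gm22748, at 2.12, 1.13, 0.193 and 0.789 CPM with DMSO and 2.18, 4.45, 5.50 and 5.93 with LPS. All LPS libraries were above all DMSO libraries, replicate 1 only narrowly. The log2 fold change was 2.34 ± 0.58 (adjusted p = 0.00475), and with replicates 1 and 2 alone it was 1.13 (adjusted p = 0.354).

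The replicate numbers paired the libraries, and with the number as a block 6 members were higher after LPS and 0 lower, against 52.4% of all genes called in that fit. Besides Gm22748 these were Gm25835 by 1.06 ± 0.33, Snord15a by 0.83 ± 0.29, Gm25776 by 1.00 ± 0.37, Gm22009 by 0.73 ± 0.28 and Snora78 by 1.31 ± 0.51 (edgeR adjusted p from 0.0164 to 0.0463). Snord15a, for instance, had 7.84, 21.3, 4.21 and 18.7 CPM with DMSO and 22.3, 18.8, 16.0 and 34.1 with LPS. It was higher in 3 of the 4 pairs, and the groups overlapped.

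Adding TM7nox to LPS changed 0 of the 65 members in total RNA, against 13.8% of all genes called. At an unadjusted p under 0.05 there was 1 member higher and 2 lower, and DESeq2 also called 0. Even so 58 of 65 log2 fold changes were positive, with a median of 0.55 for members and -0.003 for all genes. Small nuclear RNAs, another class of short nuclear RNA, had a median of 0.59 over 34 tested, with 0 called. Without RNA LPS+TM7nox replicate 4, whose library held the highest share of members (0.0717%) and of small nuclear RNAs (0.132%), the median of the members fell to 0.17. With the replicate block 3 members were higher and 0 lower, against 25% of all genes called. Gm22009 differed by 0.88 ± 0.26 (edgeR adjusted p = 0.0268), Snord118 by 0.51 ± 0.16 (0.0364) and Gm25835 by 0.91 ± 0.30 (0.0462).

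Against DMSO, LPS and TM7nox together left 6 members higher and 0 lower in total RNA, against 47.3% of all genes called. This comparison shares its libraries with the previous comparisons. The median log2 fold change was 0.81 for members and -0.01 for all genes, or 0.49 and -0.33 under scaling by total counts. Snord15a had 44.1, 28.7, 23.8 and 60.4 CPM with LPS and TM7nox, above all 4 DMSO values given above. Its log2 fold change was 1.54 ± 0.43 (edgeR adjusted p = 0.00931).

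Gm24336, inside Cwf19l1, moved from 0.636, 2.99, 1.35 and 3.39 CPM to 6.41, 3.49, 4.62 and 5.91, a log2 fold change of 1.15 ± 0.35 (edgeR adjusted p = 0.0142). The groups did not overlap, and the host gene fell by 0.83 ± 0.23 on the log2 scale (adjusted p = 0.00823). Scarna2 was at 2.33, 7.05, 7.33 and 8.02 CPM with DMSO and 8.84, 8.18, 14.1 and 21.97 with LPS and TM7nox, a difference of 1.01 ± 0.33 (0.0226). Gm24233, inside Mia2, was at 0, 0.875, 0.450 and 0.855 CPM and 1.41, 1.43, 1.49 and 2.46, a difference of 1.41 ± 0.46 (0.0217). Neither overlapped, but without RNA LPS+TM7nox replicate 4 the values were 0.66 (0.103) and 1.19 (0.0797), and for Gm24233 without RNA DMSO replicate 3 it was 1.27 (0.0668). Scaling by total counts gave 0.69 (0.0775) for Scarna2 and 1.11 (0.0515) for Gm24233. The other 2 called were Gm22748 and Gm25835.

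The number called varied widely with the libraries used. It was 3 without RNA LPS+TM7nox replicate 4, 11 without RNA LPS+TM7nox replicate 1 and 12 without RNA DMSO replicate 2. The replicate block gave 23 higher and 0 lower, against 58% of all genes called. Those included Snord118 by 0.83 ± 0.17 (edgeR adjusted p = 0.00106), Snora21 by 1.54 ± 0.37 (0.00361), Snora23 by 0.92 ± 0.28 (0.0146) and Scarna6 by 0.80 ± 0.31 (0.0421).

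**Figure D4:**
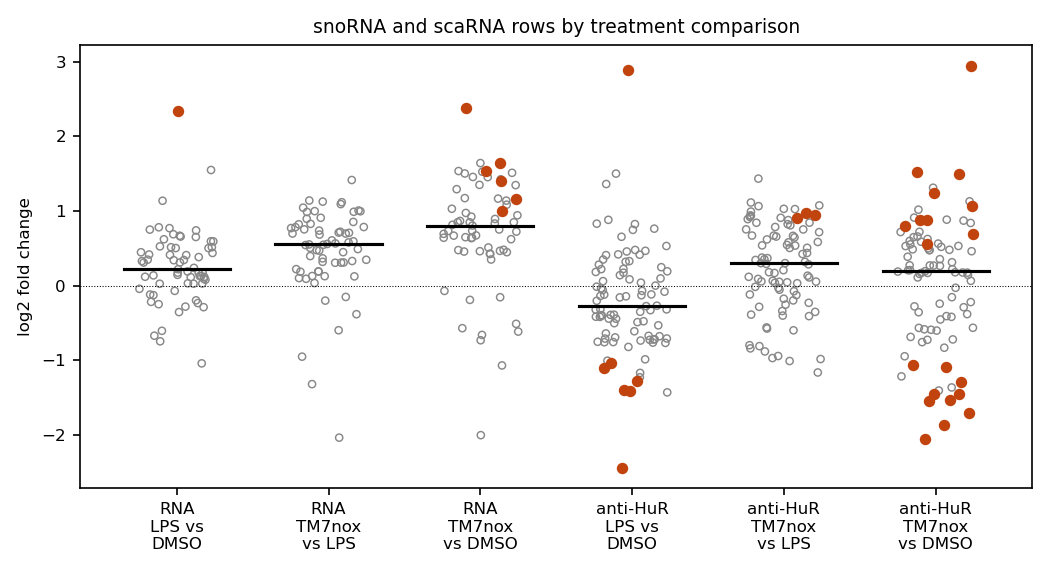
Log2 fold changes (vertical axis) of the tested members in the 6 treatment comparisons, 3 in total RNA (65 members each) and 3 in anti-HuR RIP (91 each). Filled points were called, and the bar is the median, which lies at 0.22, 0.55 and 0.81 in RNA and at -0.27, 0.30 and 0.19 in RIP.

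In the anti-HuR libraries LPS changed 7 of 91 members tested, 1 higher and 6 lower, against 44.7% of all 13614 genes called (edgeR quasi-likelihood test). Median log2 fold changes were -0.27 for members and -0.004 for all genes. Scaling by total counts moved the median of all genes by -0.63, to 1 member higher and 31 lower. Without RIP LPS replicate 2, 15 were called, and with the replicate block 17, of which 3 were higher and 14 lower, against 59.3% of all genes called.

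Gm22748 rose most. Its RIP values were 9.07, 11.8, 4.83 and 3.57 CPM with DMSO and 48.4, 68.3, 70.6 and 35.9 with LPS, with no overlap. The log2 fold change was 2.89 ± 0.33 (edgeR adjusted p = 4.24e-06). With LPS and TM7nox the values were 56.8, 67.8, 71.5 and 43.2 CPM, a difference from LPS of 0.06 ± 0.31 (adjusted p = 0.928). Because Gm22748 falls wholly in an exon of Odc1, the rate-limiting enzyme of polyamine synthesis, reads of the messenger RNA and of the member share these bases, and Odc1 is given beside it.

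Odc1 in RIP was at 398, 266, 140 and 129 CPM with DMSO, 2180, 1875, 3355 and 2882 with LPS, and 1266, 1050, 1829 and 1638 with LPS and TM7nox. It rose by 3.43 ± 0.36 with LPS (edgeR adjusted p = 1.32e-06) and by 2.79 ± 0.35 in total RNA (2.29e-05). The 2 differed between anti-HuR and IgG. Gm22748 stood at 0.389, 4.06 and 3.78 CPM in IgG and was higher in RIP by 3.98 ± 0.35 (2.03e-09). Every RIP library was above the IgG library of the same treatment, though RIP DMSO replicate 4 was below the IgG libraries of the LPS treatments. Odc1 stood at 181, 3384 and 2075 CPM in IgG and differed by -0.17 ± 0.28 (0.629).

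Snord92 fell most. It had 3.76, 6.28, 5.43 and 2.61 CPM in RIP with DMSO and 1.02, 0.946, 0.828 and 0.579 with LPS, without overlap, and its log2 fold change was -2.43 ± 0.34 (edgeR adjusted p = 3.09e-05). With LPS and TM7nox it was at 2.46, 1.22, 1.28 and 1.53 CPM, above every LPS library and below every DMSO library. That difference from LPS was 0.90 ± 0.35 (adjusted p = 0.0919), which did not pass, and 0.90 ± 0.32 (0.0422) with the replicate block. Wdr43, the host and a factor of small-subunit ribosome assembly, was higher with LPS in RIP by 0.55 ± 0.18 (0.0182), the opposite direction. In total RNA Snord92 was at 0 to 0.257 CPM and was not tested between treatments, so a change in its level cannot be told from a change in its recovery.

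Gm24644 fell by 1.03 ± 0.30 on the log2 scale with LPS in RIP (edgeR adjusted p = 0.0112), its LPS values of 1.33 to 3.26 CPM lying below all DMSO values. With replicates 1 and 2 alone it was -0.74 (adjusted p = 0.178). Its host Fbxo3 differed by -0.20 ± 0.19 (0.398). The other 4 called lower are named to complete the count, after their values were seen. Snora47, AF357399 and Gm24500 had means under the 1 CPM set for naming, and the libraries of Gm22422 overlapped. With the replicate block the lower members included Gm22358 by -1.28 ± 0.22 (0.000113), Gm27326 by -0.75 ± 0.18 (0.00229) and Snord7 by -0.85 ± 0.24 (0.00657), and Snord118 was higher by 0.75 ± 0.30 (0.0387).

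TM7nox added to LPS changed 3 of 91 members in RIP, all higher, against 16.2% of all genes called (medians 0.30 for members and -0.03 for all genes). Without RIP LPS replicate 2, 1 was called. Gm24233 had 3.05, 4.31, 3.21 and 2.84 CPM with LPS and 7.13, 5.49, 7.51 and 7.02 with LPS and TM7nox. The groups did not overlap, and the log2 fold change was 0.97 ± 0.21 (edgeR adjusted p = 0.00512; 0.75 and 0.169 with replicates 1 and 2 alone). Its host Mia2, which serves export from the endoplasmic reticulum, rose by 0.73 ± 0.16 in RIP (0.00614) and by 0.75 in total RNA (0.00285).

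Gm24727, which falls wholly in an exon of the glutathione reductase gene Gsr, had 1.62, 0.840, 2.28 and 1.39 CPM with LPS and 3.35, 2.57, 2.84 and 3.15 with LPS and TM7nox. Its log2 fold change was 0.91 ± 0.30 (edgeR adjusted p = 0.0462) without overlap, and the call was lost in 11 of 15 alternatives, where adjusted p ranged up to 0.294. Gsr rose by 1.14 ± 0.23 (0.00314). The third member called, Gm23297, is named to complete the count, with 0.95 (0.0456). With the replicate block 11 members were higher and 1 lower, against 33.6% of all genes called. The higher ones included Gm22009 by 0.81 ± 0.19 (0.00355), Scarna13 by 0.57 ± 0.16 (0.0119), Snora21 by 0.82 ± 0.24 (0.0137), Snora62 by 1.01 ± 0.29 (0.0142) and Gm22362 by 0.90 ± 0.28 (0.0197), and the lower one was Gm22358 by -0.80 ± 0.26 (0.0255).

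**Figure D5:**
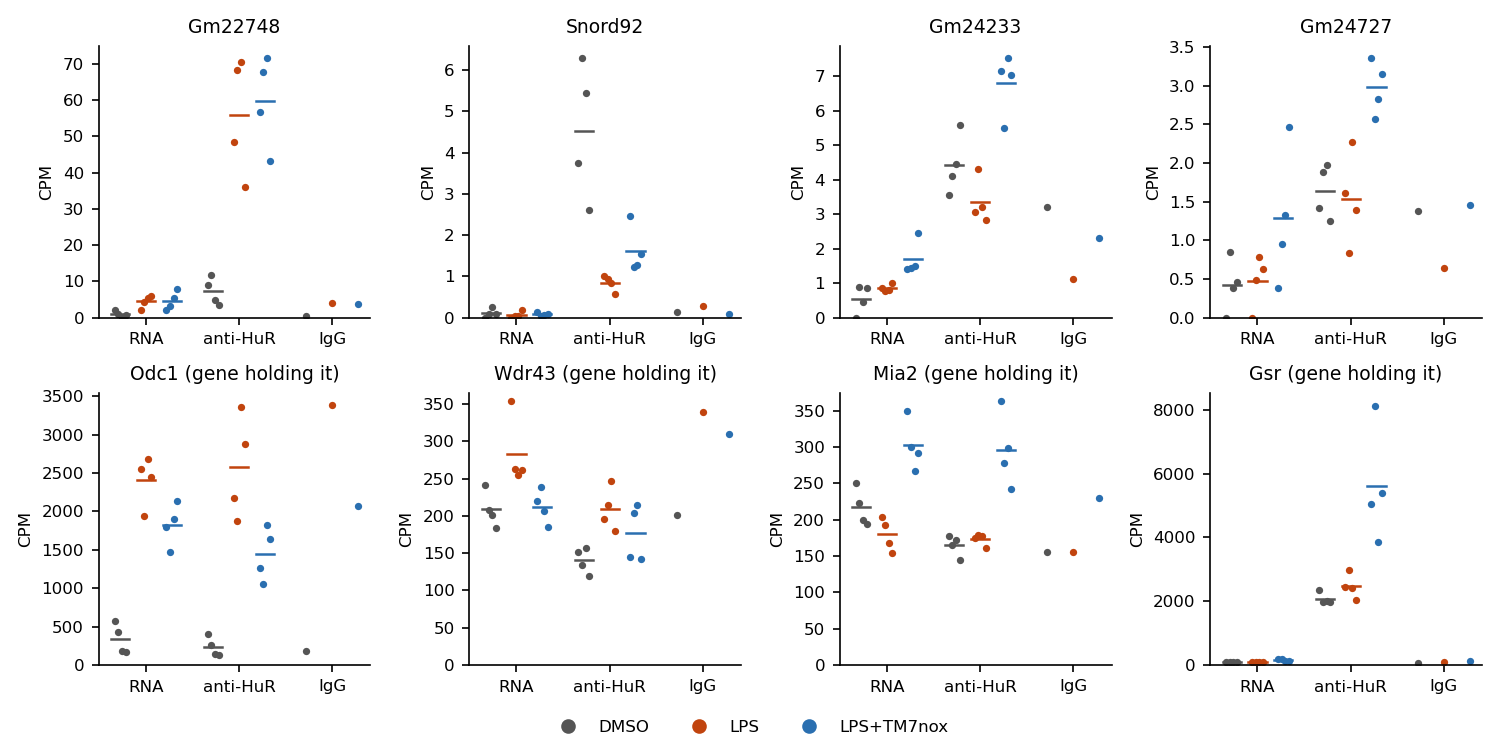
CPM (vertical axes, linear from 0) of Gm22748, Snord92, Gm24233 and Gm24727 in the upper row and of the genes that hold them (Odc1, Wdr43, Mia2, Gsr) in the lower row, 1 point per library by assay and treatment, with short lines at group means. In anti-HuR, Gm22748 goes from 3.57 to 11.8 CPM with DMSO to 35.9 to 70.6 with LPS, and Snord92 from 2.61 to 6.28 to 0.579 to 1.02.

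Against DMSO, LPS and TM7nox left 10 members higher and 10 lower in RIP, against 48.1% of all genes called, in a comparison that shares its libraries with those above. Median log2 fold changes were 0.19 for members and 0.003 for all genes, and under scaling by total counts 1 member was higher and 24 lower. Without RIP DMSO replicate 1, or without RIP DMSO replicate 3, 11 were called. Gm22748 was higher by 2.95 ± 0.34 (edgeR adjusted p = 3.36e-06) and Gm22009, of scaRNA biotype inside the importin gene Kpna4, by 1.07 ± 0.32 (0.0111). Gm22009 had 4.84, 7.40, 7.68 and 12.1 CPM with DMSO and 18.6, 12.5, 17.4 and 21.6 with LPS and TM7nox, without overlap. Scaling by total counts gave 0.44 (0.281) for it.

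Gm22358, which lies opposite BC005537, was lower by -2.04 ± 0.52 (edgeR adjusted p = 0.00424). It had 6.47, 7.77, 3.46 and 2.71 CPM with DMSO, 4.07, 3.36, 1.04 and 0.695 with LPS, and 1.61, 1.96, 0.879 and 0.720 with LPS and TM7nox. The first and last groups did not overlap. Snord92 was lower by -1.53 ± 0.32 (0.00107) and Gm24644 by -1.29 ± 0.31 (0.00276; -1.08 and 0.053 with replicates 1 and 2 alone). Gm24727 was higher by 0.79 ± 0.29 (0.0333) and Gm25776, inside Gtf2a1, by 0.69 ± 0.26 (0.0362). Each of these 2 calls was lost in 8 of 15 alternatives, with adjusted p up to 0.671 and 0.86 under scaling by total counts.

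Whether treatment altered recovery itself was tested as the change of the RIP to RNA ratio. LPS changed it for 0 of 99 members and TM7nox on top of LPS for 0 of 99, in the edgeR fit of 24 libraries, where 0.0419% and 0.00699% of all genes were called. At an unadjusted p under 0.05 there was 1 member lower for LPS, and 1 higher and 2 lower for TM7nox. DESeq2 also called 0 in both. The change by LPS was 0.38 ± 0.66 for Gm22748 (edgeR adjusted p = 0.947). For Snord92 it was -1.59 ± 0.91, from 14 RNA counts with DMSO and 8 with LPS. For Gm24644 it was -0.61 ± 0.87, from 17 and 13 RNA counts. Neither was called, but both entered this fit only through the RIP libraries. Their RNA counts are too few to show whether recovery changed. Median log2 changes over members were -0.51 for LPS and 0.004 for TM7nox.

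Members and the genes that hold them were set side by side, since most are trimmed from the host transcript. In total RNA after LPS 56 pairs were tested in both, 31 with the same sign, and across these pairs Pearson's r was 0.54 and Spearman's rho 0.26. The pairs share their libraries, and some members share exons with the host. In RIP after LPS 33 of 71 pairs had the same sign (r 0.46, rho 0.32), and for anti-HuR against IgG 63 of 111 (r 0.26, rho 0.19). Over the 13 comparisons r ran from -0.16, for the change of RIP over RNA by LPS, to the 0.54 given, and was 0.07 for TM7nox against LPS in total RNA. For anti-HuR against IgG 31 pairs were called in the same direction and 18 in opposite directions. Gm22009, for instance, was lower than IgG by -1.36 ± 0.23 (edgeR adjusted p = 2.68e-05), while its host Kpna4 was higher by 1.47 ± 0.20 (1.57e-06).

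The proteins that bind snoRNAs and assemble the particles were read from messenger RNA with a list of 23 genes, all tested. After LPS 4 rose and 2 fell in total RNA, against 42% of all genes called, with a median of -0.03, and Dkc1, the pseudouridine synthase of H/ACA particles, fell by 0.67 ± 0.11 on the log2 scale (edgeR adjusted p = 0.000257). Adding TM7nox to LPS left 0 higher and 5 lower, against 13.8% of all genes, with a median of -0.26. Nop56, a core protein of C/D particles, fell by 0.50 ± 0.10 (0.00424), Dkc1 by 0.84 ± 0.11 (0.000228), the H/ACA core protein gene Nop10 by 1.02 ± 0.25 (0.0152) and Nolc1, a nucleolar chaperone, by 0.76 ± 0.13 (0.00129). In RIP the same addition left 0 higher and 8 lower, against 16.2% of all genes, with a median of -0.45. Against IgG 4 of the 23 messengers were higher in RIP and 14 lower, against 57.9% of all genes, with Snu13, the protein that binds the C/D motif, higher by 2.72 ± 0.29 (2.68e-08). All genes tested had medians near 0 in these comparisons, as given above.

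Other lists were described likewise, beside 42% of all genes called for LPS and 13.8% for TM7nox in total RNA, and 44.7% for LPS in RIP. Of 28 tested genes of ribosomal RNA transcription and processing (31 listed), 3 rose and 5 fell with LPS in total RNA and 1 rose and 8 fell when TM7nox was added. Of 21 genes of the nuclear exosome and end trimming, 3 rose and 9 fell with LPS in total RNA, and 0 rose and 0 fell on adding TM7nox. Xrn2, a nuclear exonuclease, rose by 0.81 ± 0.11 with LPS (edgeR adjusted p = 4.32e-05), and Exosc2, an exosome subunit, fell by 0.83 ± 0.15 (0.000491). Of 15 tested long noncoding host genes, 3 rose and 0 fell when TM7nox was added, among them Gas5 by 1.30 ± 0.14 (4.45e-05). Of 5 other nuclear RNAs tested (13 listed), 1 rose and 1 fell with LPS in total RNA, and in RIP 0 rose and 2 fell. Of 97 tested host genes of the members, 17 rose and 18 fell with LPS in total RNA, and 8 rose and 6 fell on adding TM7nox.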

How the data were processed

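Libraries came from RAW264.7 cells (12 total RNA, 12 anti-HuR RIP, 3 IgG). The authors deposited raw gene counts. The submitters' processing notes name GRCm39, STAR, HTSeq, DESeq2 and FastQC 0.11.9; the sources used here do not state the strand setting, the treatment of multiply mapped reads or the annotation release. Members and lists were chosen with earlier results of these data known.

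Counts were tested with edgeR 4.0.16 (quasi-likelihood, TMM, filterByExpr with a minimum count of 10, FDR 0.05) in R 4.3.3 on the whole table, with p-values adjusted over all genes tested. RNA and RIP treatments were fitted separately over 12 libraries, RIP over RNA in 24, and RIP or IgG contrasts with treatment as covariate in 15. CPM used TMM sizes over 27 libraries. Coordinates and hosts came from GENCODE M39, matched by identifier or symbol for 143 of 154 members. The replicate numbers paired the samples, since same-numbered libraries deviated together in 36 of 36 comparisons (correlation 0.143 to 0.507). In 35 of the 36 the same number gave the highest correlation. The exception was replicate 3 for LPS against DMSO in total RNA, at 0.143 against 0.193 for another number. The test script was tested on simulated data.

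Named genes were the 10 members with the highest median RNA CPM, up to 5 called members per direction and comparison with the largest fold changes, a mean of at least 1 CPM and no overlap of libraries, a panel of known snoRNAs, the host genes, and the 3 genes on each side of the count limit. Alternatives were DESeq2 1.42.0, RLE size factors, total counts, no filter, the replicate block, replicates 1 and 2 or 3 and 4 alone, and leaving out each library.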

Additional observations from a re-analysis of the deposited data

Results flagged for a closer look

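Of 198 groups of 4 libraries examined for the named members, 12 held 1 library far from the other 3 (gap over range above Dixon's critical value). Chance gives about 1 in 20 such groups. Snord118, the U8 RNA, was at 6.68 CPM in RIP DMSO replicate 2 against 2.98 to 3.26 in the others. Snord104 was at 0.904 CPM in RIP DMSO replicate 4 against 0.339 to 0.430. Gm25970 was at 1.10 CPM in RIP DMSO replicate 4, below 2.82 to 2.88, and Gm22027 at 5.55 CPM in RIP DMSO replicate 2, above 3.55 to 3.77.

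Gm24644 stood apart in 4 groups. It was at 3.26 CPM in RIP LPS replicate 2 against 1.33 to 1.62, at 0 in RNA DMSO replicate 1 against 0.161 to 0.180, at 0.258 in RNA LPS replicate 2 against 0.0428 to 0.0687, and at 0.294 in RNA LPS+TM7nox replicate 2 against 0 to 0.0425. Snord7 was at 6.88 CPM in RIP LPS+TM7nox replicate 1 against 1.98 to 2.71. Scarna2 was at 2.33 CPM in RNA DMSO replicate 1, the shallowest library, against 7.05 to 8.02. In RNA LPS+TM7nox, Gm24233 was at 2.46 CPM in replicate 4 against 1.41 to 1.49, and Gm24119 at 7.00 CPM in replicate 1 against 14.5 to 16.0.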

How the results depend on the processing

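Of 915 values of named members under the alternatives, 859 kept their direction and side of the threshold, 56 lost the call and 0 reversed. The counts of members called moved more. With LPS in total RNA (1 called) they were 3 with DESeq2, 2 with RLE size factors, 9 without the low-count filter, 6 with the replicate block, 0 with replicates 1 and 2 alone, 8 with replicates 3 and 4 alone, and 1 to 2 leaving out each library. With TM7nox against LPS in RNA (0 called) they were 8 without the filter, 3 with the replicate block and 3 with replicates 3 and 4. With LPS and TM7nox against DMSO in RNA (6) they were 3 with total counts, 20 without the filter, 23 with the block, 0 and 36 with the 2 pairs of replicates, and 3 to 12 leaving out each library. In RIP, LPS (7) gave 32 with total counts, 12 without the filter, 17 with the block, 12 with replicates 3 and 4, and 6 to 15 leaving out each library. TM7nox against LPS in RIP (3) gave 5 with DESeq2, 1 with total counts, 11 without the filter, 12 with the block, 1 with either pair of replicates, and 1 to 3 leaving out each library. LPS and TM7nox against DMSO in RIP (20) gave 8 and 12 with the pairs of replicates and 11 to 22 leaving out each library.

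RIP over RNA gave 66 with DESeq2 and 72 without the filter for DMSO (43), 60 without the filter for LPS (38), and 66 and 68 for LPS and TM7nox (41). Leaving out each library gave 38 to 47, 35 to 41 and 39 to 46. RIP against IgG (88) stayed between 60 and 89. IgG against RNA (18) gave 32 with replicates 3 and 4, and 5 to 19 leaving out each library. Replicates 1 and 2 alone hold no IgG library. The changes of RIP over RNA were 0 under every alternative. With the replicate block Scarna13 in RIP against IgG went from -0.77 (edgeR adjusted p = 0.0117) to -0.36 (0.0829), and no other call of a named member was lost. The IgG share of counts in members was 0.106%, 0.0404% and 0.0834% (DMSO, LPS, LPS and TM7nox) without mitochondrial and rRNA genes, 0.0917%, 0.0351% and 0.0725% without the largest member, and 0.101% with DMSO over all snoRNA and scaRNA genes. The cause of these shifts was not tested. In total RNA 65 of 154 members had enough counts to be tested between treatments.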
